A study of Ovis aries with 12 samples.

Results

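DNA replication and S-phase genes were followed in epithelial cells of the sheep (Ovis aries) oviduct during the first hours of oestradiol. The set was defined by 46 gene symbols, from the origin recognition complex to cyclin E. The gene table listed 41 of them among its 18340 genes, and MCM2, POLA2, PRIM1, POLD3 and E2F1 were not matched and were not analysed here. All 41 passed the minimum for testing, a mean of at least 1 FPKM over the 12 libraries (a level per transcript length and library size), as did 12025 genes in all.

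The cells were scraped from the trypsin-treated mucosa of the ampulla, the wide upper segment of the tube, and all of them were then kept for 12 h without serum and without phenol red, which is weakly oestrogenic. Oestradiol (E2), the main ovarian oestrogen, was given at 1e-08 M, and RNA was sequenced at 0 h, the control, and after 1.5, 3.5 and 5.5 h, with 3 libraries numbered 1 to 3 at each time. Neither a genotype, a breed nor the age of the animals is in the labels, and libraries without E2 after 0 h were not analysed here, so that E2 and time in culture cannot be told apart. Whether the 3 libraries of a time are separate cultures or animals is not in the labels, and the p-values therefore reflect the spread of these samples alone, which may be technical.

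A cell copies its genome once per division. In G1 the origin recognition complex, CDC6 and CDT1 load the ring-shaped MCM helicase onto DNA, and at the start of S phase the kinases CDK2 with cyclin E and CDC7 with DBF4 turn the helicase on by recruiting CDC45 and the GINS complex. Polymerases, the sliding clamp PCNA, the nucleotide-making enzymes and the factors that copy chromatin follow at the fork. Most of these genes are E2F targets whose mRNA rises towards S phase, and in the uterus and the mammary gland oestrogen is known to drive epithelial cells into this programme.

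The total count per library ran from 48490974 to 79387070, both at 0 h (numbers 3 and 1). A floor of 3 counts then equals 0.0378 to 0.0619 CPM (counts per library size); like every floor of this kind it covers counting error alone. The libraries numbered 3 stood apart from the others at each time. In them 14414 to 15201 genes had a count, against 15428 to 16052 in the libraries numbered 1 and 2, and mitochondrially encoded genes took 5.47% to 6.04% of their counts, above all the others. Epithelial markers were high throughout (KRT8 at 3355 to 5695 FPKM), the secretory cell marker PAX8 lay at 26.1 to 44.4 FPKM, and the ciliated cell markers summed to at most 0.512 FPKM. The oviduct secretory product OVGP1 was below 1 FPKM in every library (0.079 to 0.885). Because the same number marked libraries that deviated together at all times, differences are given below for each same-numbered pair as well as for the groups.

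The replication genes spanned a wide range of levels. Their mean over the 12 libraries ran from 1.34 FPKM (POLE2, the second subunit of polymerase epsilon) to 45.7 FPKM (PCNA), with a median of 6.04 FPKM beside 12.65 FPKM for all tested genes. After PCNA came MCM7 (44.3 FPKM), RFC5 (38.2 FPKM), RRM1 (28.1 FPKM) and TYMS (24.9 FPKM). Within the MCM helicase, whose subunits assemble in equal number, the mRNA levels differed. MCM7 was above MCM6 (20.7 FPKM) and MCM6 above the other 3 in each of the 12 libraries, while the ranges of MCM4 (mean 10.9 FPKM), MCM3 (10.1) and MCM5 (6.66) overlapped. The catalytic subunits of the replicative polymerases were low, at 5.54 FPKM for POLA1, 2.73 for POLD1 and 1.51 for POLE.

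**Figure D1:**
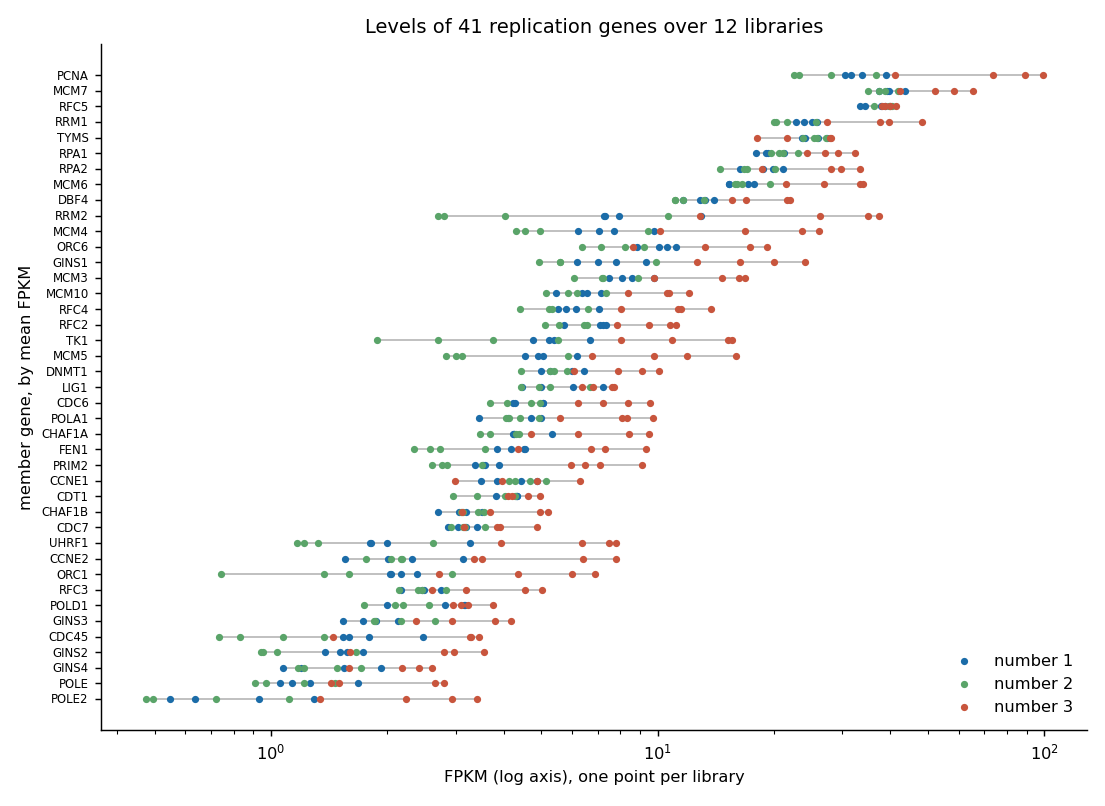
FPKM (log axis) of the 41 replication genes, ordered by mean, with 1 point per library coloured by library number. PCNA is at the top and POLE2 at the bottom; in most rows the points of number 3 lie to the right, while those of RFC5 and TYMS lie close together.

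How much a gene varied differed as widely as its level. RRM2, the small subunit of ribonucleotide reductase that is made anew each S phase, had the widest range, with 13.8 times as many FPKM in its highest library as in its lowest. ORC1 (9.27 times), TK1 (8.30), POLE2 (7.17), UHRF1 (6.68) and MCM4 (6.10) followed, and the median of the 41 genes was 2.73 times. RFC5, a subunit of the loader that places PCNA on DNA, ranged only from 33.4 to 41.4 FPKM (1.24 times), and TYMS (1.55), CDT1 (1.68), CDC7 (1.70) and LIG1 (1.75 times) were also narrow. The highest of the 12 libraries was number 3 for every one of the 41 genes: at 5.5 h for 30 of them, at 3.5 h for 9, at 0 h for CDC45 and at 1.5 h for CDC6. The lowest was number 2 at 1.5 h for 16 genes and number 2 at 3.5 h for 12.

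Among the licensing genes, MCM4, a helicase subunit, was at 9.78, 9.45 and 16.8 FPKM at 0 h (libraries 1, 2 and 3), at 6.22, 4.29 and 10.2 at 1.5 h, at 7.70, 4.95 and 23.6 at 3.5 h and at 7.03, 4.55 and 26.2 at 5.5 h. ORC1, the largest subunit of the origin recognition complex, was at 2.39, 2.94 and 4.36 FPKM at 0 h, 2.04, 1.60 and 2.72 at 1.5 h, 2.03, 0.741 and 6.01 at 3.5 h and 2.16, 1.37 and 6.87 at 5.5 h. In both genes each library was lower at 1.5 h than its own number at 0 h, after which numbers 1 and 2 stayed below their 0 h value and number 3 passed it. CDC6, which loads the helicase together with CDT1, went the other way at 1.5 h. It was at 4.28, 4.08 and 6.21 FPKM at 0 h, 5.04, 4.98 and 9.53 at 1.5 h, 4.23, 3.68 and 8.39 at 3.5 h and 5.05, 4.70 and 7.22 at 5.5 h. The 1.5 h value was above 0 h in each pair, though the groups overlapped. CDT1 held between 2.95 FPKM (1.5 h, number 2) and 4.95 FPKM (5.5 h, number 3), and its 5.5 h libraries (4.32, 4.27 and 4.95) overlapped with 0 h (4.29, 4.03 and 4.11) in FPKM, by 1 library, but not in CPM.

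Among the helicase activators, CDC45, which joins the MCM ring to form the running helicase, was at 2.47, 1.37 and 3.46 FPKM at 0 h, 1.54, 0.735 and 1.45 at 1.5 h, 1.59, 1.07 and 3.28 at 3.5 h and 1.79, 0.830 and 3.28 at 5.5 h. It was lower than 0 h in every pair at every treated time, which held for no other replication gene. Its whole interval, 13439 bases, overlaps an unnamed gene on the opposite strand with a mean of 4.87 FPKM, against 1.91 for CDC45. Since the strand setting of the counting is not given, reads of the pair cannot be told apart. GINS4, a subunit of the GINS complex, went from 1.93, 1.71 and 2.18 FPKM at 0 h to 1.07, 1.18 and 1.59 at 1.5 h, without overlap. GINS3, its partner in the same complex, was at 1.73, 1.86 and 2.38 FPKM at 0 h, and at 1.87, 2.65 and 3.80 at 3.5 h and 2.12, 2.17 and 4.18 at 5.5 h, above 0 h in each pair at both later times.

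At the fork, the sliding clamp PCNA was at 38.9, 36.7 and 73.6 FPKM at 0 h, 33.8, 23.2 and 41.1 at 1.5 h, 30.6, 22.5 and 89.0 at 3.5 h and 31.6, 28.0 and 99.0 at 5.5 h. POLE2 was at 1.29, 1.11 and 2.23 FPKM at 0 h, 0.929, 0.496 and 1.34 at 1.5 h, 0.634, 0.476 and 3.41 at 3.5 h and 0.549, 0.723 and 2.93 at 5.5 h. In both, number 3 was the highest library at each of the 4 times and the distance between it and the others was widest at the 2 later times.

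Of the nucleotide-supply genes, RRM2 was at 13.0, 10.6 and 26.3 FPKM at 0 h, 7.26, 2.70 and 12.9 at 1.5 h, 7.31, 2.80 and 34.9 at 3.5 h and 7.93, 4.03 and 37.3 at 5.5 h. TK1, the thymidine kinase that recovers thymidine, was at 6.68, 5.52 and 10.9 FPKM at 0 h, 5.25, 1.88 and 8.02 at 1.5 h, 4.76, 2.71 and 15.6 at 3.5 h and 5.40, 3.74 and 15.2 at 5.5 h. Another gene model on the same strand spans the whole interval of TK1, and how reads were divided between them is not given. Both followed the course of MCM4. TYMS, which makes thymidylate anew, did not. It was at 26.0, 25.4 and 18.1 FPKM at 0 h, 27.4, 27.2 and 27.8 at 1.5 h, 24.1, 25.9 and 21.6 at 3.5 h and 23.7, 23.7 and 28.0 at 5.5 h. Its 1.5 h libraries lay just above all of those at 0 h, and library 3 at 0 h was the lowest of the 12.

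UHRF1, which brings the maintenance methyltransferase DNMT1 to newly copied DNA, was at 3.28, 2.63 and 6.37 FPKM at 0 h, 1.82, 1.22 and 3.93 at 1.5 h, 1.81, 1.17 and 7.47 at 3.5 h and 1.99, 1.33 and 7.81 at 5.5 h. In numbers 1 and 2 it stayed low from 1.5 h on, while number 3 was above its 0 h level by 3.5 h.

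The 2 cyclins that start S phase took different courses. CCNE2 was at 3.13, 2.18 and 3.34 FPKM at 0 h, 1.55, 1.76 and 3.51 at 1.5 h, 2.01, 2.05 and 6.42 at 3.5 h and 2.31, 2.17 and 7.80 at 5.5 h, with number 3 far from the rest at the later times. An end of CCNE2 overlaps INTS8 on the other strand by 1727 bases. CCNE1 was at 3.84, 4.66 and 2.99 FPKM at 0 h, 3.48, 4.12 and 3.97 at 1.5 h, 4.44, 5.14 and 6.30 at 3.5 h and 4.89, 4.27 and 4.88 at 5.5 h. Its 3.5 h libraries were all above those at 1.5 h, as were its 5.5 h libraries. In CPM 1 of the 41 genes, CCNE1, was separated upward in each comparison, near the share of all tested genes (2.56% and 3.47%). TYMS was separated downward at 3.5 h against 1.5 h (background 2.5%).

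**Figure D2:**
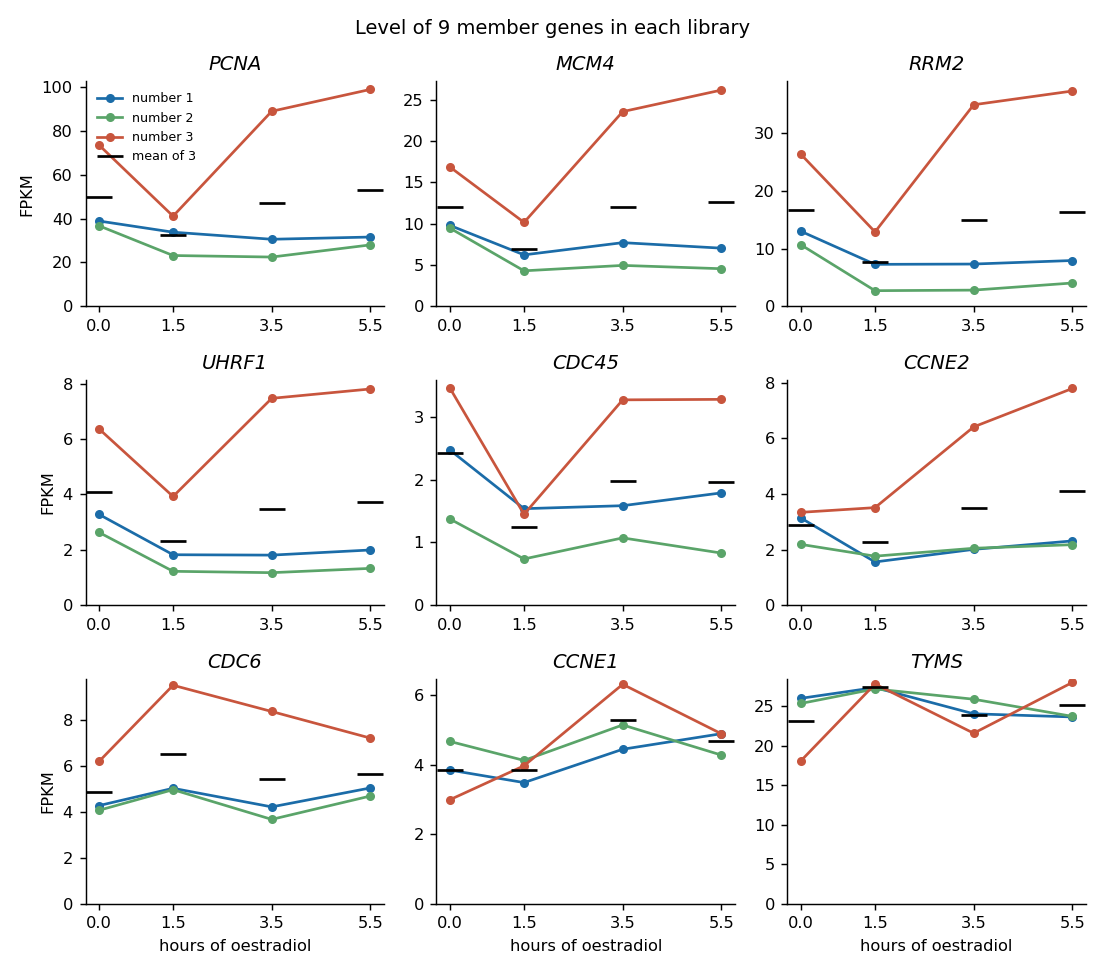
FPKM of 9 replication genes against hours of oestradiol, with 1 line per library number and a bar for the mean of the 3 libraries; each panel has its own axis from 0. PCNA, MCM4, RRM2 and UHRF1 dip at 1.5 h in each line, after which number 3 reaches 99.0, 26.2, 37.3 and 7.81 FPKM at 5.5 h and numbers 1 and 2 stay below their start; CDC6, CCNE1 and TYMS take other courses.

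The first comparison asked how the genes stood 1.5 h after E2. In edgeR's quasi-likelihood test over 12025 genes, 34 of the 41 replication genes had a lower mean and 7 a higher one than at 0 h, with a median log2 difference of −0.29 beside 0.00 for all tested genes. None had an adjusted p (Benjamini-Hochberg) under 0.05, nor did any other gene (background 0%). At an unadjusted p under 0.05 there were 0 replication genes (background 2.39%), and DESeq2 and limma on log2(FPKM + 1) also called 0 (DESeq2 background 0.00832%). The members with the smallest p were TYMS (log2 difference 0.28 ± 0.15, SE), CDC45 (−0.93 ± 0.55) and GINS4 (−0.56 ± 0.34), each with an adjusted p of 1.00, and the largest difference was that of RRM2 (−1.08 ± 0.97).

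Within pairs the direction was shared. The median log2 difference of the 41 genes in CPM was −0.16 in number 1, −0.40 in number 2 and −0.30 in number 3, and 29 genes were lower in all 3 pairs (background 13.7%). CDC6 and TYMS were the 2 that were higher in all 3 (background 14.3%). The groups did not overlap for GINS4, LIG1 (the ligase that seals Okazaki fragments) and RFC3 in the lower direction (background 4.02%), nor for TYMS in the higher one (background 4.29%). All 5 polymerase and primase genes were lower in each pair, as were 8, 7 and 6 of the 8 helicase activation genes in numbers 1, 2 and 3.

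When the replicate number entered the fit as a block, which takes out the level of each number, 14 replication genes reached an unadjusted p under 0.05 (background 9.81%), 13 of them lower and CDC6 higher. Again 0 had an adjusted p under 0.05 (background 0.00832%). DESeq2 with the same block called 2, CDC45 (log2 difference −0.89, adjusted p = 0.0403) and UHRF1 (−0.88, adjusted p = 0.0316), against a background of 0.798%. The authors' deposited table marked RRM2 as significant at 1.5 h (log2 ratio −1.13, p = 0.0148) and no other replication gene (background 0.671%). In it CDC45 and MCM4 also had p = 0.0424 and p = 0.0189, and every q-value of these genes in the authors' deposited table was 1.00.

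Smooth muscle markers (5 of 5 listed in the table, led by TAGLN) summed to 1086 to 1386 FPKM in numbers 1 and 2 at 0 h and 1246 to 1827 at 1.5 h, and in number 3 to 266 FPKM at 0 h but 2503 at 1.5 h. DES, a defining muscle marker, was at most 0.0854 FPKM. Fibroblast markers (7 of 8 in the table) in number 3 summed to 4.18 FPKM at 0 h and 26.0 at 1.5 h. The part of these shifts in the third pair's difference was not tested. In bulk RNA, fewer cells of a type and less RNA per cell cannot be told apart. The median log2 difference of the replication genes with the block was −0.29 with all 12 libraries and −0.14 without library 3 at 1.5 h, a fit added after the data were seen. It moved the other way without the block, where leaving out the same library gave −0.43. In numbers 1 and 2 alone, with the block, the median was −0.25.

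**Figure D3:**
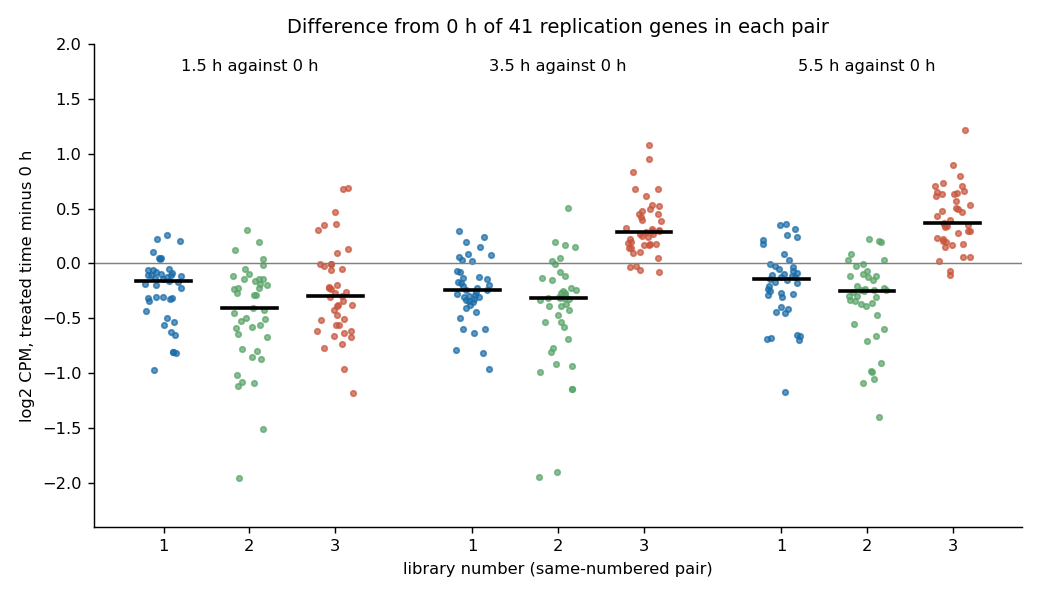
Difference from 0 h (log2 CPM) of each of the 41 replication genes in each same-numbered pair at 1.5, 3.5 and 5.5 h, with a bar at the median. The medians are below 0 in all 3 pairs at 1.5 h (−0.16, −0.40 and −0.30); at 3.5 and 5.5 h those of numbers 1 and 2 stay below 0 and that of number 3 is at 0.29 and 0.37.

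At 3.5 h the pairs parted. The median log2 difference from 0 h was −0.25 in number 1, −0.32 in number 2 and 0.29 in number 3, and 26 of the 41 genes were lower in the first 2 pairs and higher in the third (background 12.7%). CDC45, POLA1 and RPA2 (a subunit of the single-strand binding protein) were lower in all 3 pairs (background 16.2%), and CCNE1 and GINS3 higher in all 3 (background 16.6%). All 9 licensing genes were lower in number 2 and higher in number 3. Over the groups the 2 directions met: the median was −0.04, with 24 genes lower and 17 higher (with the number as a block −0.12, with 29 lower and 12 higher), and edgeR called 0 replication genes (background 0%). DESeq2 and limma called 0 as well (DESeq2 background 0.0499%). At an unadjusted p under 0.05 there was CCNE1 alone (background 2.16%). Its log2 difference was 0.48 ± 0.20 (SE; adjusted p = 1.00 in edgeR), followed by GINS3 (0.50 ± 0.38) and LIG1 (−0.22 ± 0.23).

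At 5.5 h the split was the same in kind. The median log2 difference from 0 h was −0.14 in number 1, −0.25 in number 2 and 0.37 in number 3, with 32, 35 and 2 of the 41 genes lower, and 29 genes were lower in the first 2 pairs and higher in the third (background 13.7%). CDC45 was lower in all 3 (background 15.1%), and CDC6, CDT1, GINS3 and RFC5 were higher in all 3 (background 15.9%). The groups did not overlap in CPM for CDT1 alone, which was higher (background 3.74%) at a log2 difference of 0.13 ± 0.16 (SE). Over the groups the median was 0.09, with 11 genes lower and 30 higher, but with the number as a block it was −0.02, with 21 lower and 20 higher. edgeR called 0 of them (background 0%), with 0 at an unadjusted p under 0.05 (background 2.1%), and DESeq2 and limma called 0 (DESeq2 background 0.0582%). The smallest p were those of CCNE1 (0.29 ± 0.20), GINS3 (0.51 ± 0.38) and CHAF1B, a subunit of the chromatin assembly factor (0.29 ± 0.24), each with an adjusted p of 1.00. With the block, 2 replication genes at 3.5 h (CCNE1 and UHRF1; background 6.5%) and 0 at 5.5 h (background 6.51%) had an unadjusted p under 0.05, and 0 were called at either time (background 0%).

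The treated times share libraries in the comparisons with each other, so their values stand side by side. From 1.5 to 3.5 h the pair medians were −0.00, 0.05 and 0.59, and from 1.5 to 5.5 h 0.06, 0.12 and 0.72 (log2 CPM, numbers 1, 2 and 3), so the return from the 1.5 h level was large in number 3. The group means, which include number 3, were higher in 38 of 41 genes in both comparisons, with group medians of 0.31 and 0.37. In a fit of numbers 1 and 2 alone, 20 genes were higher and 21 lower at 3.5 h. At 5.5 h that fit had 31 higher and 10 lower. Library 3 at 1.5 h held more smooth muscle marker RNA than the others numbered 3 (2503 against 266 to 709 FPKM). Its part in the number 3 difference was not tested. In all 3 pairs 11 genes (background 13.7%) and 17 genes (background 14.3%) were higher, and CDC6 and TYMS were lower in all 3 in both (backgrounds 13.4% and 13.1%). edgeR called 0 genes of the set (backgrounds 0%), with CCNE1 (0.44 ± 0.20) at an unadjusted p under 0.05 at 3.5 h against 1.5 h (background 1.34%) and 0 at 5.5 h against 1.5 h (background 1.75%). Next in order were TYMS (−0.22 ± 0.15) and ORC6 (0.50 ± 0.36) in the first, and ORC6 (0.54 ± 0.36), POLE (0.57 ± 0.41) and CCNE2 (0.81 ± 0.59) in the second. From 3.5 to 5.5 h the pair medians were 0.12, 0.06 and 0.13, with 18 genes higher in all 3 pairs (background 13.6%). There edgeR called 0 (background 0%), with 0 at an unadjusted p under 0.05 (background 0.765%), and CDT1 (0.18 ± 0.16), CCNE1 (−0.19 ± 0.20) and POLD1 (−0.24 ± 0.28) came first. In the test among all 4 times edgeR likewise called 0 (background 0%), with 0 at an unadjusted p under 0.05 (background 1.22%). DESeq2 and limma called 0 replication genes in each of these comparisons (DESeq2 backgrounds 0.00832% to 0.0499%). With the block, 4 replication genes (CDC45, RFC4, RRM2 and UHRF1) had an unadjusted p under 0.05 among the 4 times (background 5.46%), 2 at 3.5 h against 1.5 h (background 5.12%), 3 at 5.5 h against 1.5 h (background 8.08%) and 0 at 5.5 h against 3.5 h (background 2.21%). The block brought no call in any of these (background 0.0166% among the 4 times and at most 0.00832% in the others).

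The fit was repeated on the 8 libraries numbered 1 and 2 with the number as a block, which leaves 2 libraries at each time. There the replication genes had a median log2 difference from 0 h of −0.25 at 1.5 h, −0.28 at 3.5 h and −0.19 at 5.5 h, with 37, 36 and 34 of the 41 lower. UHRF1 was the one gene called, in the test among the 4 times (adjusted p = 0.0476 in edgeR, background 0.249%) and at each treated time. It fell by 0.95 ± 0.13 (SE) on the log2 scale at 1.5 h (adjusted p = 0.0472, background 0.175%), by 0.98 ± 0.13 at 3.5 h (adjusted p = 0.0372, background 0.233%) and by 0.84 ± 0.13 at 5.5 h (adjusted p = 0.0375, background 0.59%). These 3 comparisons share the same 0 h libraries. In the libraries numbered 3, left out here, the UHRF1 difference from 0 h was −0.63 at 1.5 h (log2 CPM). There it was 0.25 at 3.5 h and 0.30 at 5.5 h, opposite in sign to this fit. With all 12 libraries and the block, UHRF1 was not called by edgeR (adjusted p = 0.484, 0.765 and 0.768 at 1.5, 3.5 and 5.5 h). In numbers 1 and 2 alone, 14 replication genes had an unadjusted p under 0.05 at 1.5 h (background 9.2%), 19 at 3.5 h (background 10.2%) and 11 at 5.5 h (background 9.73%). RRM2 (−1.40 ± 0.26, adjusted p = 0.0860) and MCM4 (−0.88 ± 0.17, adjusted p = 0.0922) came next at 1.5 h and did not pass. Between the treated times edgeR called 0 replication genes in these libraries (background at most 0.00832%), with 1, 0 and 1 at an unadjusted p under 0.05 at 3.5 h against 1.5 h (background 2.56%), 5.5 h against 1.5 h (background 3.26%) and 5.5 h against 3.5 h (background 2.7%).

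The replication genes differed among the library numbers. With time as a covariate, edgeR called 34 of the 41 replication genes for a difference among the 3 numbers (background 35.5%), and CCNE1, CDC7, CDT1, CHAF1B, LIG1, RFC5 and TYMS were the 7 not called. Against number 1, number 3 was higher in 32 called genes and lower in 0 (backgrounds 15.2% in each direction), with a median log2 difference of 0.64 over the 41. Against number 2 it was higher in 35 and lower in 0 (backgrounds 17.4% and 17.1%), with a median of 0.82. Between numbers 2 and 1 edgeR called 0 replication genes (backgrounds 0.0665% higher and 0.133% lower), and 31 of 41 were lower in number 2.

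RRM2 had the largest differences, at 1.63 ± 0.33 and 2.60 ± 0.35 (log2, SE) in number 3 against numbers 1 and 2, with adjusted p of 0.00732 and 0.00103 in edgeR. UHRF1 stood at 1.54 ± 0.21 and 2.06 ± 0.22 (adjusted p = 0.00187 and 0.000474), POLE2 at 1.54 and 1.84, MCM4 at 1.28 and 1.72, PCNA at 1.11 and 1.42, and TK1 at 1.13 and 1.88. TYMS (−0.11 and −0.12), CCNE1 (0.08 and −0.05) and RFC5 (0.12 and 0.00) lay near 0. Counted as a share of all counts in genes, the 41 genes took 0.0656% to 0.0865% in numbers 1 and 2, and 0.119%, 0.0920%, 0.140% and 0.151% in number 3 at 0, 1.5, 3.5 and 5.5 h.

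**Figure D4:**
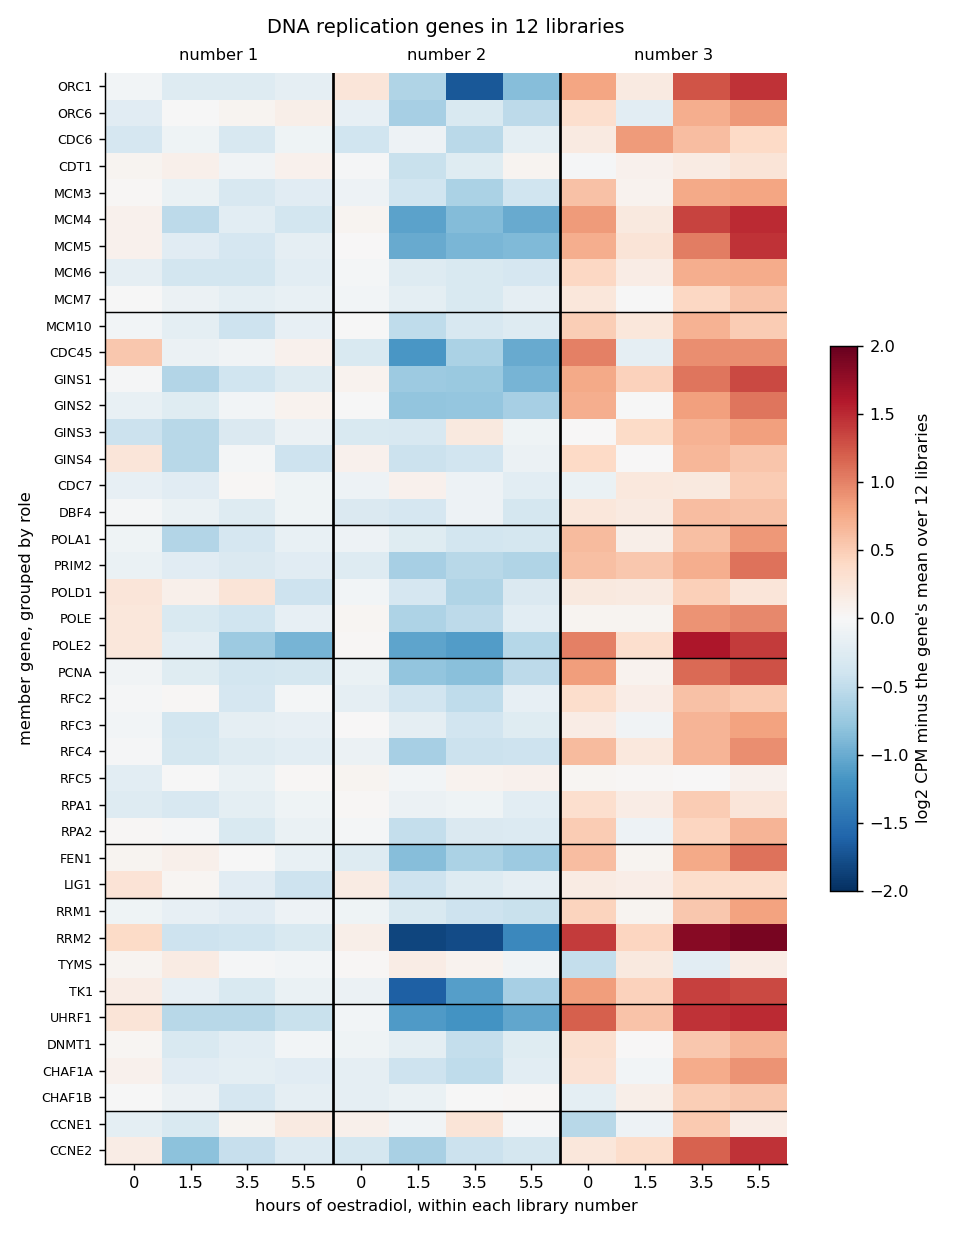
Log2 CPM of each replication gene minus its own mean over the 12 libraries, with genes grouped by role and libraries ordered by number and then by time. The block of number 3 is the darkest red at 3.5 and 5.5 h, RRM2, ORC1 and TK1 are darkest blue in number 2, and the rows of RFC5, TYMS and CDT1 are pale.

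The distance of number 3 was itself uneven over time. Number 3 was above both other libraries in 32 of the 41 genes at 0 h (background 41.9%), 35 at 1.5 h (background 33.2%), 39 at 3.5 h (background 40.2%) and 40 at 5.5 h (background 41.4%). The median gap between number 3 and the mean of the other 2 was 0.52, 0.45, 1.03 and 1.07 on the log2 CPM scale at these times, beside −0.01 to 0.01 for all tested genes. No test of the change in this gap was made, since each time holds a single library numbered 3. The epithelial markers (4 of 6 listed in the table) summed to 6454 to 7373 FPKM in number 3 against 4671 to 6199, most of it KRT8. They did not all go one way, since CLDN4 was at 92.2 to 194 FPKM in number 3 against 143 to 239, and edgeR called 2 of the 4 higher against each other number and 1 lower against number 2. The secretory marker PAX8 was at 26.1 to 33.2 FPKM in number 3 against 28.4 to 44.4, and lower than in number 1 by edgeR (log2 difference −0.28, adjusted p = 0.0421). Against number 2 PAX8 did not differ in edgeR (log2 difference −0.01, adjusted p = 0.918), and number 2 lay below number 1 (−0.26, adjusted p = 0.189). Number 3 had, except at 1.5 h, less of the smooth muscle (266 to 709 FPKM against 1086 to 2063) and fibroblast markers (4.18 to 6.21 FPKM against 16.7 to 20.04). Most of the smooth muscle sum was TAGLN, while MYH11 was at 0.495 to 0.742 FPKM in all libraries. Over all times edgeR called 0 of 3 tested smooth muscle markers lower against number 1 and 1 against number 2 (backgrounds 15.2% and 17.1%). Of 4 tested fibroblast markers it called 2 and 1 lower. Immune markers (4 of 4 in the table) summed to 8.91 to 10.4 FPKM in number 3 against 13.9 to 18.8, nearly all of it CD68, with PTPRC and CD3E at most 0.121 FPKM. Endothelial markers (4 of 4) summed to 7.44 to 13.5 FPKM against 17.3 to 26.0, with PECAM1 at most 0.201. The part of these differences in the level of the replication genes was not tested.

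Mitosis genes, whose products act after S phase, were also higher in number 3. The 21 of 25 listed mitosis genes in the table had gaps between number 3 and the others of 1.22, 1.10, 2.02 and 2.27 (median log2 CPM at 0, 1.5, 3.5 and 5.5 h), and 20 of the 21 were called among the numbers (background 35.5%). Their pair medians against 0 h were −0.60, −1.35 and −0.97 at 1.5 h, −0.65, −1.26 and −0.15 at 3.5 h and −0.72, −1.03 and 0.05 at 5.5 h. In number 3 at 3.5 h the mitosis genes were thus still lower than at 0 h in 19 of 21 cases, when 37 of the 41 replication genes were higher. The difference between the lists was not tested. A wider list of 61 replication and cell-cycle genes (checkpoint, repair, E2F and cyclin genes) had 55 in the table and 51 tested. None of them was called by edgeR at any treated time against 0 h, with 1 at an unadjusted p under 0.05 at each (backgrounds 2.39%, 2.16% and 2.1%), and their medians were −0.26, −0.06 and 0.03. With the number as a block, 12, 2 and 3 of them had an unadjusted p under 0.05 (backgrounds 9.81%, 6.5% and 6.51%). Their pair medians against 0 h were −0.16, −0.27 and −0.26 at 1.5 h. They were −0.20, −0.28 and 0.15 at 3.5 h and −0.13, −0.16 and 0.28 at 5.5 h. Among the numbers, 31 of the 51 were called (background 35.5%).

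**Figure D5:**
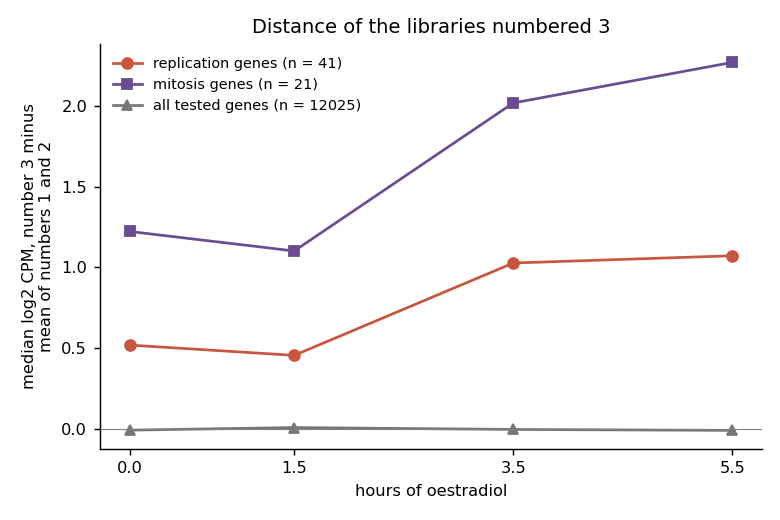
Median distance (log2 CPM) of the library numbered 3 from the mean of numbers 1 and 2 at each time, for the 41 replication genes, 21 mitosis genes and all 12025 tested genes. The replication genes go from 0.52 and 0.45 to 1.03 and 1.07, the mitosis genes lie above them at each time, and all genes stay near 0.

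The replication genes varied together across the libraries, with a few exceptions. Over the 12 libraries, which share numbers and times, 32 of the 41 had a Pearson correlation above 0.8 with the mean profile of the set (1202 of 12025 tested genes did), PCNA coming first at 0.98. GINS3, CHAF1B, CDC6, POLD1, CDT1 and CDC7 ranged from 0.68 to 0.77, and RFC5 (0.23), CCNE1 (0.19) and TYMS (−0.29) stood outside. The genes outside the set whose profile was most like it were HELLS (0.99), a chromatin remodeller of the DNA methylation pathway, and NUF2 (0.98), a kinetochore protein, followed by an unnamed gene, MICU2, ERCC6L, UCHL5, SERBP1, DIAPH3, KNTC1 and EIF3B at 0.97 to 0.98. These are descriptions over 12 libraries in which the number 3 stands apart for most of the genes.

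Transcripts and positions bear on a few of these values. The table gave 1 transcript for 37 of the 41 genes. Of the other 4, ORC6, POLA1 and TYMS had 1 main transcript (mean 11.5, 4.75 and 27.4 FPKM against 0.219, 0.959 and 0.499), while DNMT1 had 2 of like level (4.54 and 3.26 FPKM). In all, 9 of the 41 genes overlapped another gene of the table. Besides CDC45, TK1 and CCNE2, POLD1 lies within another gene model on its strand, and CDT1 meets APRT (23.9 FPKM) on the other strand over 711 bases. MCM7 holds 3 microRNA genes, and the partners of TYMS, POLA1 and DNMT1 were at a mean below 0.14 FPKM. In the coordinates of the authors' table, whose genome build is not given in the sources used here, UHRF1 lies at chr5:16805816-16842579, RRM2 at chr3:19185138-19191043, MCM4 at chr9:32400920-32411149, PCNA at chr13:46615171-46619285, CDC45 at chr17:71901010-71914448, CDC6 at chr11:40114668-40125179, CCNE1 at chr14:39695273-39705116 and TYMS at chr23:35875779-35888637. How reads that match several places were counted is not given either.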

How the data were processed

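RNA sequencing of 12 libraries was analysed, 3 at each of 4 times. Per the file headers, counts and FPKM per gene and library were deposited by the authors in 1 table, and FPKM per transcript in another. The authors' deposited comparisons with 0 h hold a log2 ratio, p-value and q-value. Not used were 30 other per-sample columns. TopHat2 2.0.9 and Cufflinks are named in the submitters' processing notes, with no role. Not given in the sources used here are the genome build, the counting tool, its strand setting and the authors' test.

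Counts were scaled by TMM (0.975 to 1.02) and fitted with edgeR 4.0.16 (quasi-likelihood F tests, R 4.3.3) in 1 model of the 4 times for 12025 genes (mean FPKM at least 1). Benjamini-Hochberg adjustment ran over all of them, and an adjusted p under 0.05 was called. Pair differences were taken in log2 CPM (prior count 2). Alternatives were the replicate block, 2 other scalings, DESeq2 1.42.0, limma 3.58.1 on log2(FPKM + 1) or log2(FPKM + 0.1), other filters, and leaving out libraries. On simulated data edgeR, with and without the block, and DESeq2 without it were tested for 1.5 h against 0 h. Those data held no difference between the numbers.

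The numbers 1 to 3 come from the labels. Deviations from the time means correlated at 0.218 to 0.705 in the 18 library pairs sharing a number and at −0.600 to 0.331 in the 36 others. Every same-number pair passed 0.1, so the numbers were used as pairs. The highest of the others (0.331) passed 0.1 too and lay above the lowest same-number pair. The limit therefore does not establish the pairing.

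The members and all lists were chosen with earlier results of these data known. Values in every library were set to be given for PCNA, MCM4, CDC6, CDT1, CDC45, ORC1, POLE2, RRM2, TYMS, TK1, UHRF1, CCNE1 and CCNE2, and the 3 members with the smallest p were named per comparison; GINS3 and GINS4 values, and other examples, were picked after the values were seen. Marker genes without a row (MSLN, TUBB4B, PIFO, KRT18, KRT19 and DCN) were not matched. No sequence is printed.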

Additional observations from a re-analysis of the deposited data

Results flagged for a closer look

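The median log2 difference of the 41 replication genes from 0 h had opposite signs in the libraries numbered 3 and in those numbered 1 and 2. At 3.5 h it was 0.29 in number 3, with −0.25 and −0.32 in the others, and at 5.5 h it was 0.37, with −0.14 and −0.25. With 1 library per number and time the difference between the numbers was not tested, and the 2 times share the 0 h libraries.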

How the results depend on the processing

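In the comparisons over time the count of called replication genes was 0 under edgeR, and it stayed 0 with the replicate block, with both other scalings, under DESeq2 and limma, with both other filters and without each library in turn (0 to 0). Exceptions were DESeq2 with the replicate block, which called 2 at 1.5 h (CDC45 and UHRF1), and edgeR with the replicate block without the libraries numbered 3, which called 1 (UHRF1) among the 4 times and at 1.5, 3.5 and 5.5 h against 0 h. The median log2 difference of the members with the replicate block was −0.29 at 1.5 h, −0.12 at 3.5 h and −0.02 at 5.5 h against 0 h; with the block and without library 3 at 1.5 h, a setting chosen after seeing the data, it was −0.14 at 1.5 h. Without the block, where the median at 1.5 h was also −0.29, leaving out 1 library at a time gave −0.43 (without library 3 at 1.5 h) to −0.12 (without library 3 at 0 h). The other ranges without the block were −0.47 to 0.20 at 3.5 h, −0.38 to 0.30 at 5.5 h, −0.14 to 0.46 for 3.5 h against 1.5 h, −0.084 to 0.56 for 5.5 h against 1.5 h and −0.37 to 0.52 for 5.5 h against 3.5 h, and the first or last value of each came without library 3 at one of its times. UHRF1 ranged from −1.42 to 0.24 at 3.5 h and from −1.28 to 0.32 at 5.5 h, and CCNE2 from −0.042 (without library 3 at 5.5 h) to 1.27 for 5.5 h against 1.5 h; the cause was not tested. The count of members that differ among the numbers was 34 of 41 (background 35.5%). Without 1 library at a time it ranged from 24 (without library 3 at 3.5 h) to 36. At a mean FPKM of at least 5 it was 21 of the 24 members tested there. The shares over all genes in these other settings are not given here. Depth gave each member 41 to 7994 counts per library. The SE of the log2 difference of RRM2 at 1.5 h was 0.97 without the replicate block and 0.38 with it, and it was called in neither fit.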
